A study of Mus musculus with 24 samples.

Results

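Loss of Cmah in dystrophin-deficient muscle was read from 6 of the 24 arrays of the series, the 3 gastrocnemius arrays of Cmah KO mdx mice and the 3 of mdx mice. The gastrocnemius is a calf muscle. Cmah KO mdx animals carried the mdx mutation of dystrophin together with a Cmah gene mutated to resemble the human one, under the strain label C57BL6/10J. The mdx mice carried the same dystrophin mutation with Cmah intact, under the same strain label. Cmah KO mice (Cmah mutated, dystrophin intact) and WT mice, both labelled C57BL/6J, served to read the same Cmah difference with dystrophin present. All animals were males of 2 months, and each gave 1 gastrocnemius and 1 heart array. The sources used here do not say whether animals were littermates or how far the Cmah mutation had been crossed into the mdx strain.

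Cmah encodes the hydroxylase that turns the sialic acid Neu5Ac into Neu5Gc, a step that humans have lost, so that human and Cmah-deficient mouse cells carry Neu5Ac alone on their surface glycans. Dystrophin links the actin skeleton of the muscle fibre through dystroglycan, a heavily glycosylated receptor, to the basement membrane. Fibres of mdx mice lack it and pass through rounds of necrosis, macrophage infiltration and regeneration, but the disease is milder than in boys with Duchenne muscular dystrophy, and the study asks whether the human-like sialic acid state alters the mouse disease.

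The gene that led the comparison was Ctsl, the gene of cathepsin L, a cysteine protease of lysosomes. The coding gene next to it, Prxl2c, which encodes a peroxiredoxin-like protein, was also among the genes with the smallest p. Both lie on chromosome 13, as does Cmah. Their start regions are shown because each of these neighbours had 1 probe set that was lower in the Cmah KO mdx arrays than in the mdx arrays. The sequences are those of RefSeq on GRCm38.p6, from 250 bases before to 50 bases after the gene start, read 5′ to 3′ on the minus strand, with matches to CACGTG in capitals. This palindrome is the core of the element that the lysosomal regulator TFEB binds, and it reads the same on both strands.
Ctsl, chr13:64370471-64370770: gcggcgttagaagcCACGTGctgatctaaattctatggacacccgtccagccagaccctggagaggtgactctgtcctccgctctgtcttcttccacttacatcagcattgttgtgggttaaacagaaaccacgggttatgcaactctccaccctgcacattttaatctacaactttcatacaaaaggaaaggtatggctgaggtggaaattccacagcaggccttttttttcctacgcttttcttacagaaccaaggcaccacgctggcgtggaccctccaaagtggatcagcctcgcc
Prxl2c, chr13:64312661-64312960: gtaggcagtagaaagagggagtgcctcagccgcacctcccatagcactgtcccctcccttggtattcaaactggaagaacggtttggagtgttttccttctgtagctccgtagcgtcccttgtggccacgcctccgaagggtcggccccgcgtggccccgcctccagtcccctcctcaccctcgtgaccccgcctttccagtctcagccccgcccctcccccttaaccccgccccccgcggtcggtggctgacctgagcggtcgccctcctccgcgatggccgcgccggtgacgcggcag
The Ctsl window held 1 match and the Prxl2c window 0, and 7.15% of the 32851 windows of this length in the RefSeq table held at least 1. These letters do not show that a factor binds there.

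Array medians in gastrocnemius ranged from 41.99 to 49.69 intensity units in the 6 arrays compared. The labelled tissue held its defining markers, since all 8 skeletal muscle markers (Acta1, Ckm, Myh4, Myh1, Tnnt3, Mb, Pvalb and Atp2a1) were tested, and the log2 of their summed intensity was 16.20 to 16.31 in Cmah KO mdx and 16.21 to 16.48 in mdx. Dmd, which encodes dystrophin, read 8.57, 8.44 and 7.54 log2 intensity in Cmah KO mdx and 8.59, 8.45 and 8.06 in mdx at its brightest probe set, against 9.99 to 10.26 in the 6 arrays with dystrophin. Cmah itself read 8.11, 6.93 and 6.46 in Cmah KO mdx and 7.71, 7.69 and 6.24 in mdx, so the groups overlapped (-0.05 ± 0.52 SE). Whether the Cmah probes lie in the mutated stretch is not known here, so this probe set does not check the labels. The arrays of Cmah KO mdx replicate 1 and mdx replicate 1 had the highest bioB hybridization control of their groups (11.60 and 11.39, against 9.62 to 10.78 in the other 4). Without both of these arrays the probe set called was one with no gene name here, and Ctsl read -4.19 (limma adjusted p = 0.132).

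Across 29518 probe sets, 1 passed the threshold between Cmah KO mdx and mdx (limma, Benjamini-Hochberg adjusted p below 0.05), which is 0.00339% of those tested. At an unadjusted limma p below 0.05 there were 274 (0.928%), with 153 higher (0.518%) and 121 lower (0.410%) in Cmah KO mdx. That is fewer than the share of 0.05 that such a limit gives when no probe set differs. The reason was not tested. The probe set that passed reads Ctsl. Groups did not overlap in 2.28% of probe sets in the higher direction and in 1.54% in the lower. The 24 probe sets with the smallest p and 1 gene symbol, 12 higher and 12 lower, are described below with their values, and of these Ctsl alone passed. In many of them the lower group mean was under 4.66, the 40th percentile of gastrocnemius signals. This was the Cmah KO mdx mean for Ctsl, Uqcr10, Fut10, Unc5a, Zfp874a, Dusp18, Cyfip2 and Eps8l1. It was the mdx mean for Ssu72, Tti2, Zfp729b, S100b, Xaf1, 6230400D17Rik, Bace2 and Lrrc15. The sizes of these differences are not reliable. The permutation test on 3 against 3 arrays cannot give a p below 0.1, so no single-gene permutation test is given.

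**Figure D1:**
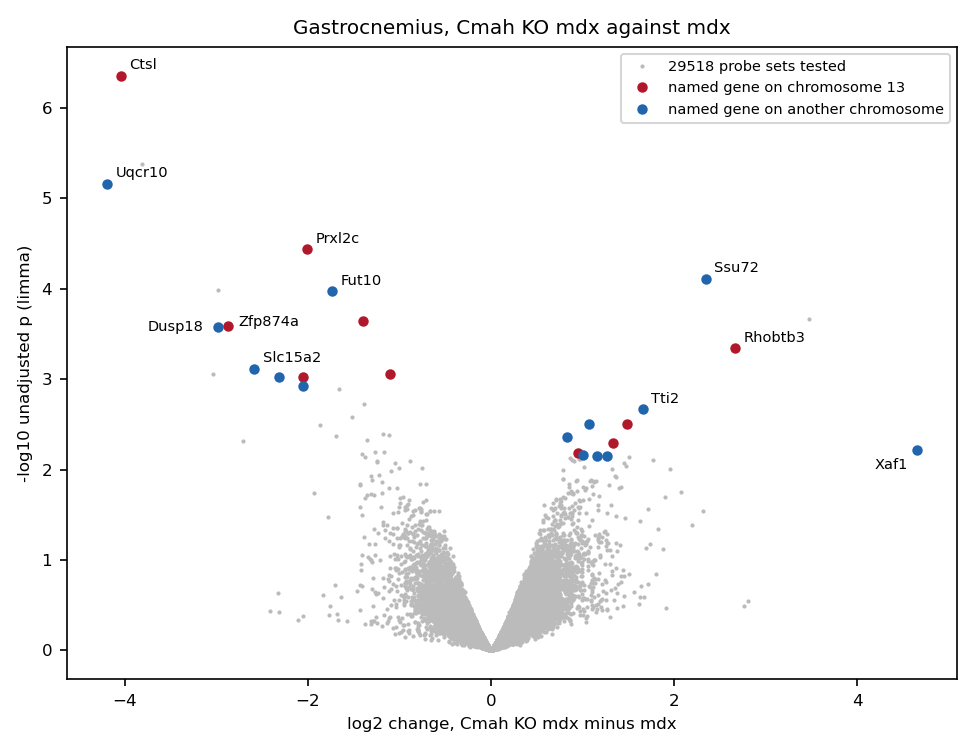
Log2 change in gastrocnemius, Cmah KO mdx minus mdx (x axis), against -log10 of the unadjusted limma p (y axis) for the 29518 probe sets tested. Coloured points are the 24 named genes, those on chromosome 13 in red. Ctsl stands highest, and Uqcr10 and Xaf1 show the largest sizes of change among the named genes (-4.19 and 4.65).

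Ctsl at this probe set read 4.45, 3.73 and 3.82 log2 intensity in Cmah KO mdx gastrocnemius, against 8.20, 8.59 and 7.33 in mdx. All 3 Cmah KO mdx arrays lay far below the lowest mdx array. Ctsl fell by 4.04 ± 0.40 (SE) on the log2 scale, 16.5 times lower signal (limma adjusted p = 0.0130). The Cmah KO mdx mean of 4.00 was under 4.66, the 40th percentile of gastrocnemius signals, where intensities carry little information on size. With dystrophin present, the probe set read 4.95, 3.85 and 3.80 in Cmah KO and 7.91, 7.65 and 7.50 in WT. The 6 Cmah-deficient arrays were therefore all low and the 6 Cmah-intact arrays all high, whatever the dystrophin genotype. The heart arrays of the same animals split in the same way, with 4.89, 5.89 and 4.32 in Cmah KO mdx and 7.44, 8.30 and 8.12 in mdx. The other Ctsl probe set tested did not follow. It read 10.39, 12.73 and 11.98 in Cmah KO mdx and 10.34, 11.71 and 11.78 in mdx, overlapping groups with a difference of 0.42 ± 0.65. The probe sequences were not used here, so the stretch of Ctsl that each probe set reads is not known. The Ctsl call was lost in the fit of the 6 arrays alone (limma adjusted p = 0.0595). It was also lost without Cmah KO mdx replicate 2 (0.151), Cmah KO mdx replicate 3 (0.144), mdx replicate 1 (0.0642) or mdx replicate 2 (0.119), while the difference stayed between -3.77 and -4.40 in these and the other arrays left out.

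Prxl2c, the neighbour shown above, read 8.22, 7.74 and 7.84 in Cmah KO mdx and 9.70, 10.42 and 9.70 in mdx. The groups did not overlap and lay well above the 40th percentile. The difference of -2.01 ± 0.31 did not pass (limma adjusted p = 0.271). A second Prxl2c probe set ran the other way, at 6.10, 7.06 and 6.58 in Cmah KO mdx and 5.01, 6.07 and 5.15 in mdx (1.17 ± 0.45), so that no direction can be given for the gene. Both probe sets kept these signs between Cmah KO and WT (-1.47 ± 0.31 and 0.87 ± 0.45).

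Chromosome 13 carried 10 of the 24 named probe sets. Among them were genes for KRAB-type zinc finger proteins, a family of DNA-binding repressors that stands in a cluster there. Zfp874a read 4.94, 3.56 and 3.34 in Cmah KO mdx and 7.37, 7.03 and 6.08 in mdx, a difference of -2.88 ± 0.56 (limma adjusted p = 0.706). A block of replicate numbers over all 12 gastrocnemius arrays gave a limma adjusted p of 0.0420. A block over only the 2 groups compared did not call Zfp874a. The Cmah KO mdx arrays were all below the mdx arrays. Rsl1, known in mouse liver as a repressor of male-biased genes, read 5.17, 5.40 and 4.54 in Cmah KO mdx and 7.94, 6.90 and 6.41 in mdx (-2.05 ± 0.47). Zfp729b leaned the other way, at 6.16, 5.72 and 5.10 in Cmah KO mdx and 4.74, 4.26 and 3.54 in mdx (1.48 ± 0.40), although its second probe set overlapped (0.32 ± 0.50). At these 3 probe sets no array crossed between the groups.

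Mcur1, which encodes a regulator of the mitochondrial calcium uniporter, was bright and tightly grouped. It read 9.12, 9.43 and 9.24 in Cmah KO mdx and 10.52, 10.37 and 10.21 in mdx (-1.11 ± 0.25), and 9.65, 9.19 and 9.59 in Cmah KO and 10.42, 10.43 and 10.09 in WT. The low and high arrays again followed Cmah, but the second and dimmer Mcur1 probe set overlapped (-0.32 ± 0.64). Unc5a, a netrin receptor gene, showed the same order at a lower level, with 4.77, 4.36 and 4.21 in Cmah KO mdx and 5.54, 5.99 and 6.00 in mdx (-1.40 ± 0.27). Rhobtb3 was higher, with 8.54, 8.10 and 7.68 in Cmah KO mdx and 5.12, 4.89 and 6.32 in mdx (2.66 ± 0.55). Its other probe sets were also higher, by 1.10 ± 0.71, 1.03 ± 0.37 and 0.45 ± 0.46. Cdk7, the kinase of the transcription factor TFIIH, was also higher, at 6.18, 6.00 and 6.53 in Cmah KO mdx and 5.40, 5.46 and 5.02 in mdx (0.95 ± 0.29). Its 4 other probe sets lay between -0.10 and 0.45 with overlapping groups. Rnf180, an E3 ubiquitin ligase gene, read 6.47, 6.94 and 6.35 in Cmah KO mdx against 4.88, 6.19 and 4.70 in mdx, with 4.33, 4.85 and 4.68 in Cmah KO and 4.70, 4.59 and 4.15 in WT. All 3 Cmah KO mdx arrays were the highest, with mdx replicate 2 close below them.

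All 10 named probe sets on chromosome 13 had the same sign between Cmah KO and WT gastrocnemius, groups that share no array with the mdx comparison, although the fit shares its spread estimate. Over all 29518 probe sets 51.6% had the same sign in both. For 8 of the 10 the 6 Cmah-deficient arrays did not overlap with the 6 Cmah-intact arrays. Over all 29518 probe sets 16 did this (0.0542%), and 10 of the 16 lie on chromosome 13. The named probe sets were picked for their difference between Cmah KO mdx and mdx on the same arrays, so that share is no like base for them. The other 6 (Bean1, Mtfmt, Nol12, 9130008F23Rik, Ube2j2 and Abcf3), named here after their values were seen, differed by 0.31 to 0.70 between Cmah KO mdx and mdx. Between Cmah KO and WT 0 probe sets passed limma's adjusted threshold (0%), and 332 had an unadjusted p below 0.05 (1.12%).

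**Figure D2:**
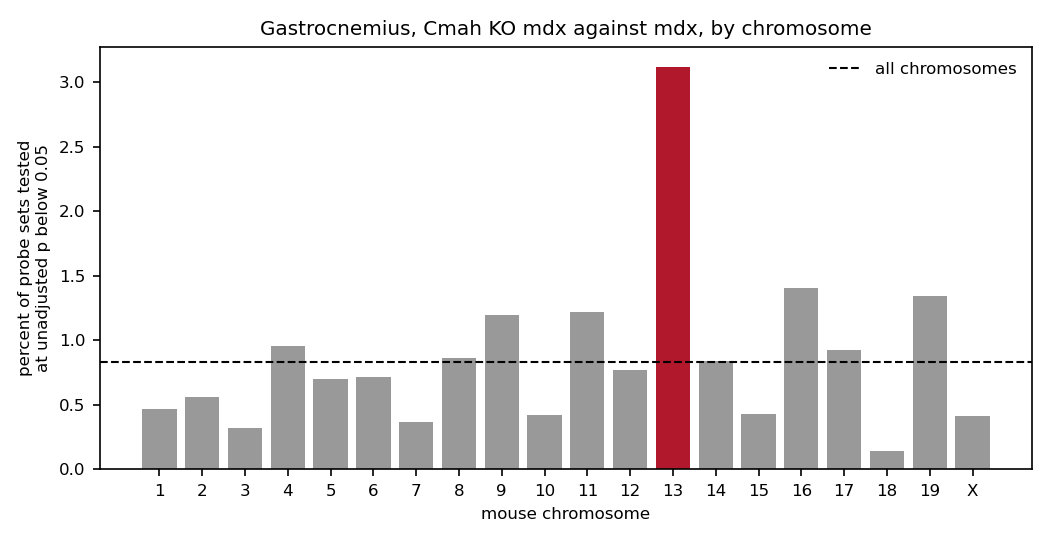
Percent of tested probe sets with 1 gene symbol at an unadjusted limma p below 0.05 in Cmah KO mdx against mdx gastrocnemius, by chromosome. The dashed line is the 0.830% over all chromosomes, and chromosome 13 stands at 3.12%.

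Chromosome 13 had 28 of 898 probe sets at an unadjusted p below 0.05, or 3.12%, ranking 1 of 20 chromosomes. Even this lay below the share of 0.05 that such a limit gives when no probe set differs. Chromosome 16 followed with 1.40%, and all chromosomes together gave 0.830%, or 0.743% without chromosome 13. At p below 0.01 chromosome 13 held 14 of 46 probe sets, 1.56% of its own against 0.189% over all chromosomes, where it holds 3.69% of those tested. In the order of coding genes along the chromosome, Prxl2c and Ctsl stand at 513 and 514, then Ptdss1 at 542, Rsl1 at 547, Zfp429 at 554, Zfp874a at 556, Zfp729b at 561, Rhobtb3 at 617, Arsk at 621, Cdk7 at 735 and Rnf180 at 759. Cmah itself stands at 200, with Zkscan8 before it at 85 and Mrs2, Mcur1 and Unc5a after it at 210, 325 and 408.

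The next 10 chromosome 13 genes by p held 2 more, Arsk and Zkscan8, that split all arrays by Cmah. Arsk, a lysosomal sulfatase gene, read 7.54, 6.22 and 6.07 in Cmah KO mdx and 8.45, 8.99 and 8.00 in mdx (-1.87 ± 0.51), and -1.49 ± 0.51 between Cmah KO and WT. Its second probe set had the opposite sign (1.08 ± 0.37). Zfp429 read 3.96, 3.21 and 3.36 in Cmah KO mdx and 5.40, 4.69 and 5.41 in mdx (-1.66 ± 0.39), and Gm10037 read -1.36 ± 0.39. Elovl7, which encodes a fatty acid elongase, was 5.18, 4.95 and 5.03 in Cmah KO mdx and 3.77, 3.50 and 3.53 in mdx (1.46 ± 0.46), and it had the opposite sign between Cmah KO and WT (-1.18 ± 0.46). The other differences were 0.94 ± 0.32 for Ppwd1, a spliceosomal cyclophilin gene, 0.91 ± 0.35 for Ube2ql1, 0.85 ± 0.33 for Zkscan8, 0.57 ± 0.22 for Mrs2, a mitochondrial magnesium channel gene, -0.92 ± 0.36 for Ptdss1, a phosphatidylserine synthase gene, and -0.76 ± 0.30 for Pou5f2. The other probe sets of Zkscan8 (0.05 ± 0.38), Mrs2 (0.03 ± 0.33) and Ptdss1 (-0.27 ± 0.26 and -0.17 ± 0.39) overlapped between the groups. Nnt, a mitochondrial transhydrogenase gene on the same chromosome, overlapped (-0.12 ± 0.34).

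At 3 of the 4 named probe sets on chromosome 11 the pattern was of another kind, since mdx and not Cmah KO mdx stood apart. The remaining one, of Xaf1, is described below. Over the whole chromosome 15 of 1974 probe sets set mdx apart (0.760%), where 0.329% of all 29518 probe sets did. As many, 15, set Cmah KO mdx apart, where 0.847% of all 29518 did. Uqcr10, a subunit of respiratory complex III, read 4.24, 4.02 and 4.49 in Cmah KO mdx and 8.23, 9.22 and 7.87 in mdx. Cmah KO arrays read 4.16, 5.57 and 3.45 and WT arrays 4.07, 3.89 and 2.74. The mdx arrays were thus the 3 highest of 12. The means of Cmah KO mdx (4.25), Cmah KO (4.39) and WT (3.57) were all under 4.66, the 40th percentile of gastrocnemius signals. Intensities there carry little information on size, so whether Cmah KO mdx equals the animals with dystrophin cannot be told from this probe set. The difference of -4.19 ± 0.55 between Cmah KO mdx and mdx did not pass (limma adjusted p = 0.0676). It passed with the replicate numbers as a block over all 12 arrays (limma adjusted p = 0.0420). With a block over only the 2 groups compared it did not pass. A second Uqcr10 probe set gave 4.94, 5.12 and 5.24 in Cmah KO mdx and 8.15, 9.24 and 6.84 in mdx (-2.98 ± 0.52). The remaining and brightest one gave 11.42, 11.93 and 12.05 in Cmah KO mdx and 11.63, 12.08 and 11.68 in mdx, with no difference in mean (0.00 ± 0.31).

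Dusp18, which encodes a dual specificity phosphatase and has 18 coding genes between it and Uqcr10, read 3.49, 4.25 and 5.21 in Cmah KO mdx and 6.36, 8.64 and 6.89 in mdx (-2.98 ± 0.58). Its other probe set overlapped (-0.23 ± 0.28). Cyfip2, a component of the WAVE complex that drives actin branching, read 4.95, 4.61 and 4.33 in Cmah KO mdx and 7.29, 6.65 and 6.89 in mdx (-2.31 ± 0.53). Its other probe sets overlapped (-1.29 ± 0.86 and -0.94 ± 0.75). At the first probe set of all 3 genes mdx was higher than each of the other 3 groups, a separation shown by 35 of 29518 probe sets (0.119%). The genes were picked for being lower in Cmah KO mdx than in mdx on the same arrays, so that share is no like base. Of the 455 probe sets lower without overlap between those groups, 35 had this separation. Between Cmah KO and WT they read 0.83 ± 0.55 for Uqcr10, 0.38 ± 0.58 for Dusp18 and -0.11 ± 0.53 for Cyfip2. The test of the interaction, Cmah loss without minus with dystrophin, called 0 probe sets (0%), with 311 at an unadjusted limma p below 0.05 (1.05%). It also crosses the strain labels.

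**Figure D3:**
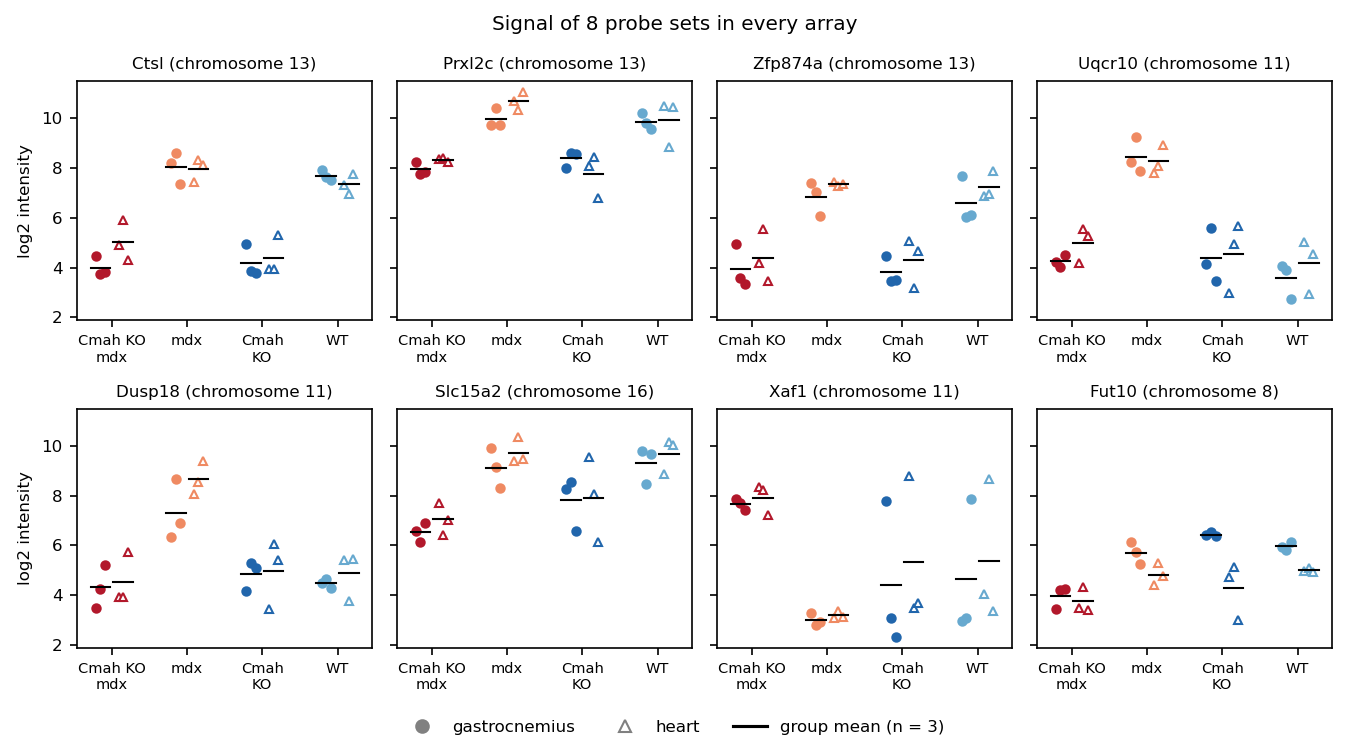
Log2 intensity (y axis) of 8 named probe sets in every array, by genotype, with gastrocnemius as filled circles, heart as open triangles and black bars for the mean of 3 arrays. Ctsl, Prxl2c and Zfp874a are low in both Cmah-deficient groups, Uqcr10 and Dusp18 are high in mdx alone, and Xaf1 reads high or low by animal in both tissues.

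Xaf1, an interferon-inducible gene whose product antagonises the apoptosis inhibitor XIAP, showed the largest difference of the named genes, 4.65 ± 1.39. It read 7.88, 7.69 and 7.43 in Cmah KO mdx and 3.31, 2.81 and 2.93 in mdx, with no value in between. With dystrophin the same probe set took both levels within a genotype. Cmah KO read 7.77, 3.08 and 2.34, and WT read 2.98, 3.09 and 7.86. Level went with the animal and not with the tissue, since the 5 animals at 7.43 to 7.88 in gastrocnemius read 7.20 to 8.77 in heart, and the 7 at 2.34 to 3.31 read 3.10 to 4.07. In the 12-array fit the spread within Cmah KO and WT gave a limma adjusted p of 1.00, whereas limma on the 6 arrays alone called Xaf1 (adjusted p = 0.00631), and no other probe set. The other Xaf1 probe set, 6.40, 8.61 and 8.61 in Cmah KO mdx and 8.10, 8.74 and 9.30 in mdx, overlapped (-0.84 ± 0.70).

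A pair of neighbours on chromosome 8, with 1 coding gene between them, set Cmah KO mdx apart from all other groups. Fut10, a member of the fucosyltransferase family, read 3.45, 4.21 and 4.23 in Cmah KO mdx and 6.13, 5.72 and 5.27 in mdx, against 6.40, 6.54 and 6.36 in Cmah KO and 5.93, 5.82 and 6.14 in WT (-1.74 ± 0.30 for Cmah KO mdx against mdx). A second probe set of Fut10 gave -1.41 ± 0.43 and the last one -0.19 ± 0.47. Tti2, a partner of the chaperone complex that matures large kinases of the mTOR and ATM family, read 5.57, 6.63 and 6.22 in Cmah KO mdx and 4.04, 4.84 and 4.56 in mdx (1.66 ± 0.42). Its other probe sets gave -1.05 ± 0.33 and 0.42 ± 0.32, so the gene had both signs. Ssu72, which encodes a phosphatase of the RNA polymerase II tail, read 6.18, 5.34 and 5.35 in Cmah KO mdx and 3.07, 3.31 and 3.46 in mdx (2.34 ± 0.40). Its 2 other probe sets differed by 0.12 and -0.29 with overlap.

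Lrrc15, a leucine-rich repeat membrane protein gene of activated fibroblasts, was 5.24, 6.63 and 5.85 in Cmah KO mdx and 3.98, 5.10 and 4.83 in mdx (1.27 ± 0.39). Cmah KO and WT arrays lay at 3.72 to 4.53, so Cmah KO mdx was again the highest group. Across all probe sets, 250 set Cmah KO mdx apart from the other 3 groups (0.847%) and 97 set mdx apart (0.329%).

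Slc15a2, which encodes the peptide transporter PEPT2, read 6.57, 6.12 and 6.92 in Cmah KO mdx and 9.91, 9.14 and 8.32 in mdx (-2.59 ± 0.57). Cmah KO arrays read 8.26, 8.56 and 6.58 and WT arrays 9.80, 8.44 and 9.67, so 1 Cmah KO animal lay among the Cmah KO mdx values. Eps8l1, a gene of the EPS8 family of actin regulators, read 2.68, 3.28 and 3.32 in Cmah KO mdx and 4.64, 5.62 and 5.17 in mdx (-2.05 ± 0.48). The Cmah KO mdx values of Eps8l1 lay below the 40th percentile.

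The other higher genes had smaller differences in tighter groups. Cd59a, which protects cells from the complement membrane attack complex, read 8.38, 8.34 and 8.46 in Cmah KO mdx and 7.78, 7.52 and 7.39 in mdx (0.83 ± 0.23), and its other probe set gave 0.67 ± 0.29. The Cmah KO mdx arrays were closer to the Cmah KO and WT arrays, 8.38 to 8.83, than to mdx. S100b, a calcium-binding protein gene of Schwann cells, read 5.65, 5.56 and 5.85 in Cmah KO mdx and 4.94, 4.71 and 4.20 in mdx (1.07 ± 0.29), and its other probe set overlapped (0.63 ± 0.67). The 3 tested Schwann cell markers had a log2 summed intensity of 10.33 to 10.93 in Cmah KO mdx and 10.13 to 10.42 in mdx. They are Mbp, Sox10 and the other probe set of S100b itself, so the sum is not independent of S100b. Mbp makes up most of it, with means of 10.59 in Cmah KO mdx and 10.20 in mdx. The part of Schwann cells in the S100b values was not tested. Bace2, an aspartyl protease gene, differed by 1.15 ± 0.35, and 6230400D17Rik by 1.00 ± 0.31, both without overlap. The other Bace2 probe sets ranged from -0.42 to 0.90. At Cd59a, S100b and 6230400D17Rik the mdx arrays were the 3 lowest of 12, which 0.210% of probe sets showed. These genes were picked for being higher in Cmah KO mdx than in mdx on the same arrays, so that share is no like base. Of the 672 probe sets higher without overlap between those groups, 62 had this order.

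**Figure D4:**
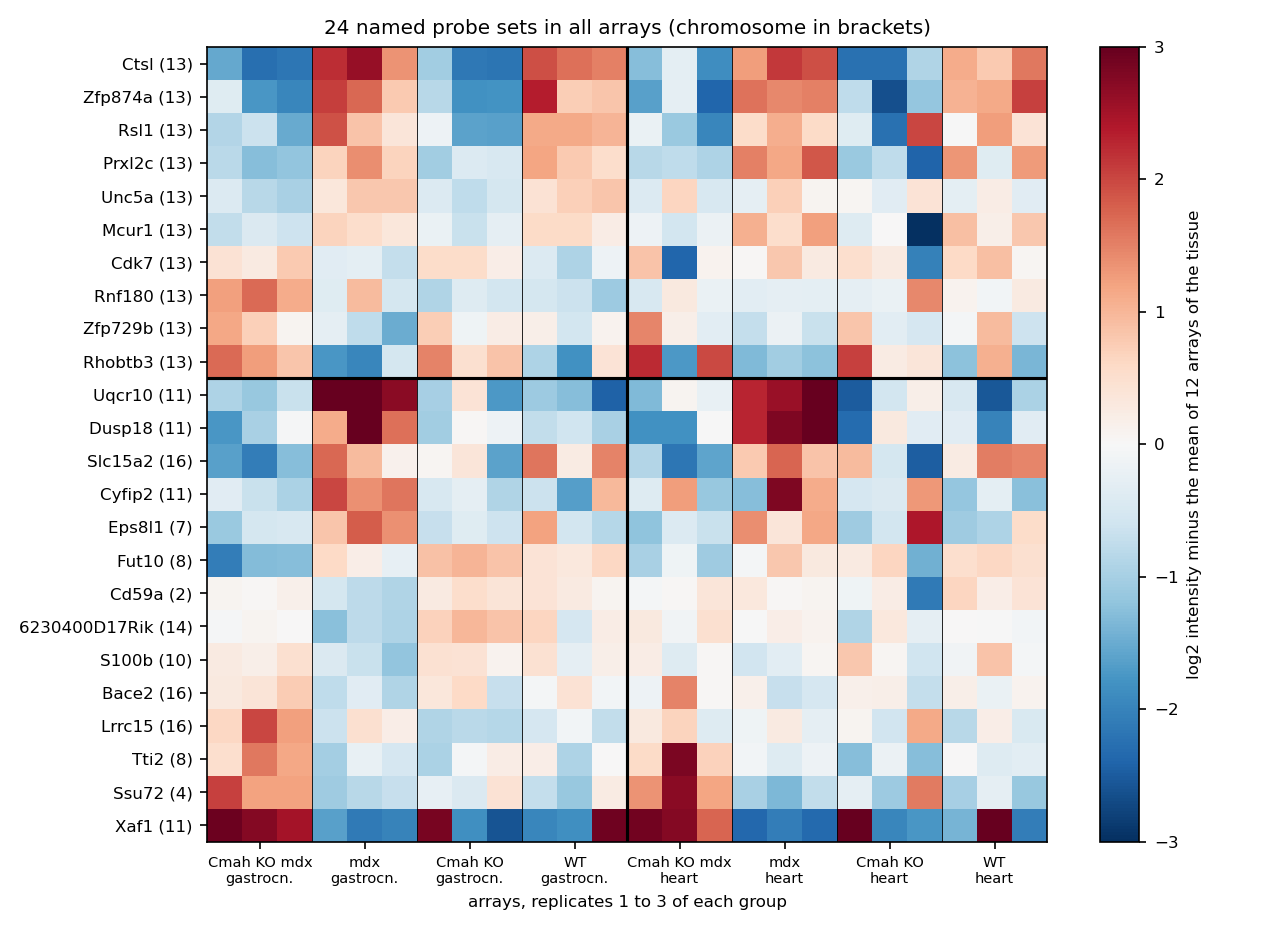
Log2 intensity minus the mean of the 12 arrays of each tissue (colour) for the 24 named probe sets (rows, chromosome in brackets, chromosome 13 above the line) in all 24 arrays (columns, by genotype and tissue), with colours capped at 3 in either direction. Most rows of chromosome 13, but not Rnf180, share colours between Cmah KO mdx and Cmah KO, while Uqcr10 and Dusp18 are red in mdx of both tissues.

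Hearts of the same animals, on other arrays, showed much of the same ordering. Of 23 named probe sets tested there, 21 had the sign of the gastrocnemius difference, where 55.0% of all 27869 probe sets tested in both tissues did. The exceptions were Cdk7 (-0.83 ± 0.82) and Cd59a (-0.04 ± 0.55). In 13 of the 24 the heart groups did not overlap in that direction, a separation shown by 3.43% of heart probe sets for higher and 5.61% for lower. The named probe sets were picked for their gastrocnemius difference in the same animals. Shares over all probe sets are therefore no like base for them. One Cmah KO mdx heart array (replicate 2) deviated in its 3′ minus 5′ Gapdh control, at 4.43 log2 against 0.48 to 1.60 in the other Cmah KO mdx and mdx hearts, and so did Cmah KO heart replicate 3 at 4.29. Without both, 16 of the 24 were separated, but with 2 arrays against 3 so were 5.20% of heart probe sets in the higher and 7.65% in the lower direction. Uqcr10 and Dusp18 kept their order in heart, where Uqcr10 read 4.17, 5.56 and 5.27 in Cmah KO mdx and 7.77, 8.07 and 8.93 in mdx, and Dusp18 read 3.95, 3.95 and 5.75 in Cmah KO mdx and 8.06, 8.56 and 9.37 in mdx. The first Cyfip2 probe set did not, with 4.97, 6.61 and 4.22 in Cmah KO mdx hearts and 4.09, 8.16 and 6.47 in mdx hearts, which overlapped. A brighter Cyfip2 probe set, which overlapped in gastrocnemius, was separated in heart (-3.15 ± 0.93). It read 5.27, 5.13 and 7.16 in Cmah KO mdx hearts and 7.32, 10.51 and 9.19 in mdx hearts. The remaining Cyfip2 probe set overlapped in heart. Slc15a2 kept its order, with 7.71, 6.43 and 7.01 in Cmah KO mdx hearts and 9.37, 10.34 and 9.45 in mdx hearts. Limma called 0 probe sets in heart (0%), with 464 at an unadjusted p below 0.05 (1.58%). It also called 0 for the difference between the tissues (0%), with 376 at an unadjusted p below 0.05 (1.21%).

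Cell types and programmes of dystrophic muscle were then read from 42 gene lists, each gene at its brightest probe set. The comparison of lists is by counts and medians. Of all 13171 genes 58.8% were higher in Cmah KO mdx and the median log2 difference was 0.05, and 112 genes had an unadjusted limma p below 0.05 (0.850%). No list had a member past the adjusted threshold, and 6 of the lists' genes reached an unadjusted p below 0.05: Cdkn1a, Cdca5, Kif11, Cd59a, Hlf and Mcur1. In bulk muscle fewer cells of a type and less RNA per cell cannot be told apart.

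Cell cycle genes had the highest list median, 0.53, with 23 of 24 members higher in Cmah KO mdx. Cdca5, which encodes the cohesin protector sororin, read 7.62, 7.15 and 5.89 in Cmah KO mdx and 4.87, 5.77 and 4.69 in mdx (1.77 ± 0.55). Kif11, the spindle kinesin, read 6.26, 5.43 and 4.94 in Cmah KO mdx and 4.41, 4.82 and 3.70 in mdx (1.23 ± 0.56). Both were free of overlap, but the list as a whole was not, since its median deviation from the mdx mean was -0.04, 1.46 and 0.64 in the Cmah KO mdx arrays and -0.37, 0.85 and -0.63 in the mdx arrays. The mdx replicate 2 array thus lay above 2 Cmah KO mdx arrays. Read by replicate number, the Cmah KO mdx array was above the mdx array of the same number, by 0.33, 0.61 and 1.28. The numbers are not known to pair the animals, which were separate. Matched otherwise, mdx replicate 2 (0.85) would lie above Cmah KO mdx replicate 1 (-0.04). The uniform order therefore rests on the numbering and does not remove the overlap of the groups. Without Cmah KO mdx replicate 2 the list median was 0.17, without Cmah KO mdx replicate 1 it was 0.93 and without mdx replicate 2 it was 0.95. Between Cmah KO and WT the list median was -0.56, and in heart 0.03. Cdkn1a, the p21 inhibitor of the cell cycle, listed under growth regulators, was also higher, at 10.72, 11.18 and 11.09 in Cmah KO mdx and 10.14, 10.20 and 10.43 in mdx (0.74 ± 0.29).

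Macrophage and monocyte genes had a median of 0.34, with 25 of 28 members higher and none at an unadjusted p below 0.05. Spi1, the PU.1 factor of myeloid cells, read 0.67 ± 0.40, Trem2, a lipid receptor of phagocytes, 0.81 ± 0.60, and Cd84 0.96 ± 0.80. The list's deviations were -0.48, 1.08 and 0.51 in Cmah KO mdx arrays and -0.17, 0.59 and -0.29 in mdx arrays, so the groups overlapped and both ends of the range were Cmah KO mdx. By replicate number the differences were -0.30, 0.50 and 0.80, and the list median was 0.05 without Cmah KO mdx replicate 2 and 0.81 without Cmah KO mdx replicate 1. Of 7 macrophage markers 6 were tested, 1 was below the 40th percentile in both groups, and the log2 of their summed intensity was 12.91 to 14.22 in Cmah KO mdx and 13.23 to 13.86 in mdx. The part of macrophage content in the other results was not tested. Neutrophil genes read 5 of 6 higher (median 0.31), mast cell genes 6 of 7 (0.19), T and NK cell genes 4 of 11 (-0.18) and B cell genes 2 of 5 (-0.21).

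Genes of regenerating muscle had 18 of 21 members higher, with a median of 0.22. Chrng, the fetal subunit of the acetylcholine receptor, read 7.24, 8.02 and 8.40 in Cmah KO mdx and 7.02, 7.73 and 6.33 in mdx (0.86 ± 0.44), and Mymx, the fusion factor myomixer, 9.39, 11.32 and 10.59 in Cmah KO mdx and 9.28, 9.81 and 8.16 in mdx (1.35 ± 1.01). In both genes replicate 1 of Cmah KO mdx lay within the mdx range. Satellite cell genes read 10 of 14 higher (0.13), and neuromuscular junction and denervation genes 11 of 16 (0.20).

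Matrix proteases and their inhibitors had a median of 0.43, with 12 of 18 higher, but of 0.08 without Cmah KO mdx replicate 2. Mmp14, the membrane-bound collagenase, read 8.76, 8.70 and 8.93 in Cmah KO mdx and 8.38, 8.53 and 8.17 in mdx (0.44 ± 0.24), and Timp3, an inhibitor of these enzymes, 10.02, 10.07 and 10.34 in Cmah KO mdx and 10.76, 10.62 and 10.77 in mdx (-0.57 ± 0.28). Neither pair of groups overlapped. Collagens and other interstitial matrix genes were evenly split, 14 higher and 14 lower (median -0.00), and fibroblast and TGF-beta genes nearly so, 9 and 10 (-0.05). Basement membrane genes read 5 of 15 higher (-0.08), and tendon and cartilage genes 7 of 15 (-0.04).

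Genes of sialic acid metabolism, the pathway in which Cmah acts, were higher for 13 of 15 members, with a median of 0.25 and none at an unadjusted p below 0.05. Cmas, which activates sialic acid for transfer, read 9.88, 9.69 and 9.33 in Cmah KO mdx and 9.71, 8.92 and 8.86 in mdx (0.47 ± 0.35), Renbp, an N-acetylglucosamine epimerase, 0.52 ± 0.37, and Slc17a5, the lysosomal sialic acid exporter, 0.37 ± 0.27. The groups overlapped for Cmas. Between Cmah KO and WT the list median was 0.06, and in heart -0.20. Sialyltransferases read 10 of 16 higher (0.05), among them St6galnac4 at 7.59, 7.30 and 7.50 in Cmah KO mdx and 6.80, 6.86 and 7.22 in mdx (0.50 ± 0.24). Sialic acid binding lectins read 5 of 7 higher (0.28), galectins 3 of 6 (-0.01), dystroglycan glycosylation genes 7 of 12 (0.11) and dystrophin complex genes 8 of 19 (-0.02). Utrn, the dystrophin homologue, read 11.37, 11.16 and 11.42 in Cmah KO mdx and 11.69, 11.82 and 11.25 in mdx (-0.27 ± 0.24).

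Contractile and metabolic genes of the fibre differed little. Fast fibre genes read 2 of 15 higher (median -0.09), slow fibre genes 4 of 12 (-0.07), respiratory chain genes 9 of 25 (-0.03), glycolysis genes 5 of 16 (-0.04), fatty acid oxidation genes 3 of 22 (-0.14) and calcium handling genes 8 of 21 (-0.04). The sizes of the single differences in these lists lay between -1.11 (Mcur1) and 0.62 (Sln, the inhibitor of the calcium pump). Cardiac sarcomere genes had the lowest list median, -0.38, with 1 of 8 higher, and of 6 heart muscle markers 5 were tested and 2 lay below the 40th percentile in both groups.

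Interferon response genes had a median of -0.34, with 2 of 14 higher. Rsad2, the antiviral protein viperin, read 9.19, 10.23 and 9.55 in Cmah KO mdx and 10.18, 10.31 and 10.30 in mdx (-0.61 ± 0.40), and Ifit1 gave -0.57 ± 0.38. The list's deviations were -1.17, 0.45 and -0.13 in Cmah KO mdx and -0.53, 0.16 and 0.32 in mdx, and without Cmah KO mdx replicate 1 the list median was 0.01. Adipocyte genes read 1 of 13 higher (-0.20), and endothelial genes 5 of 15 (-0.17). The adipocyte deviations were -0.75, -0.22 and -0.15 in Cmah KO mdx and -0.10, -0.12 and 0.37 in mdx. They did not overlap, though -0.15 and -0.12 lay close, and no adipocyte member had an unadjusted limma p below 0.05. Circadian clock genes read 4 of 18 higher (-0.22). Hlf, a clock output factor, read 7.10, 6.27 and 6.40 in Cmah KO mdx and 8.30, 6.80 and 7.43 in mdx (-0.92 ± 0.37), and Per2 read 6.84, 7.92 and 7.37 in Cmah KO mdx and 8.35, 8.24 and 8.36 in mdx (-0.94 ± 0.44). The Per2 groups did not overlap, whereas those of Hlf did. The hour at which muscles were taken is not given in the sources used here.

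**Figure D5:**
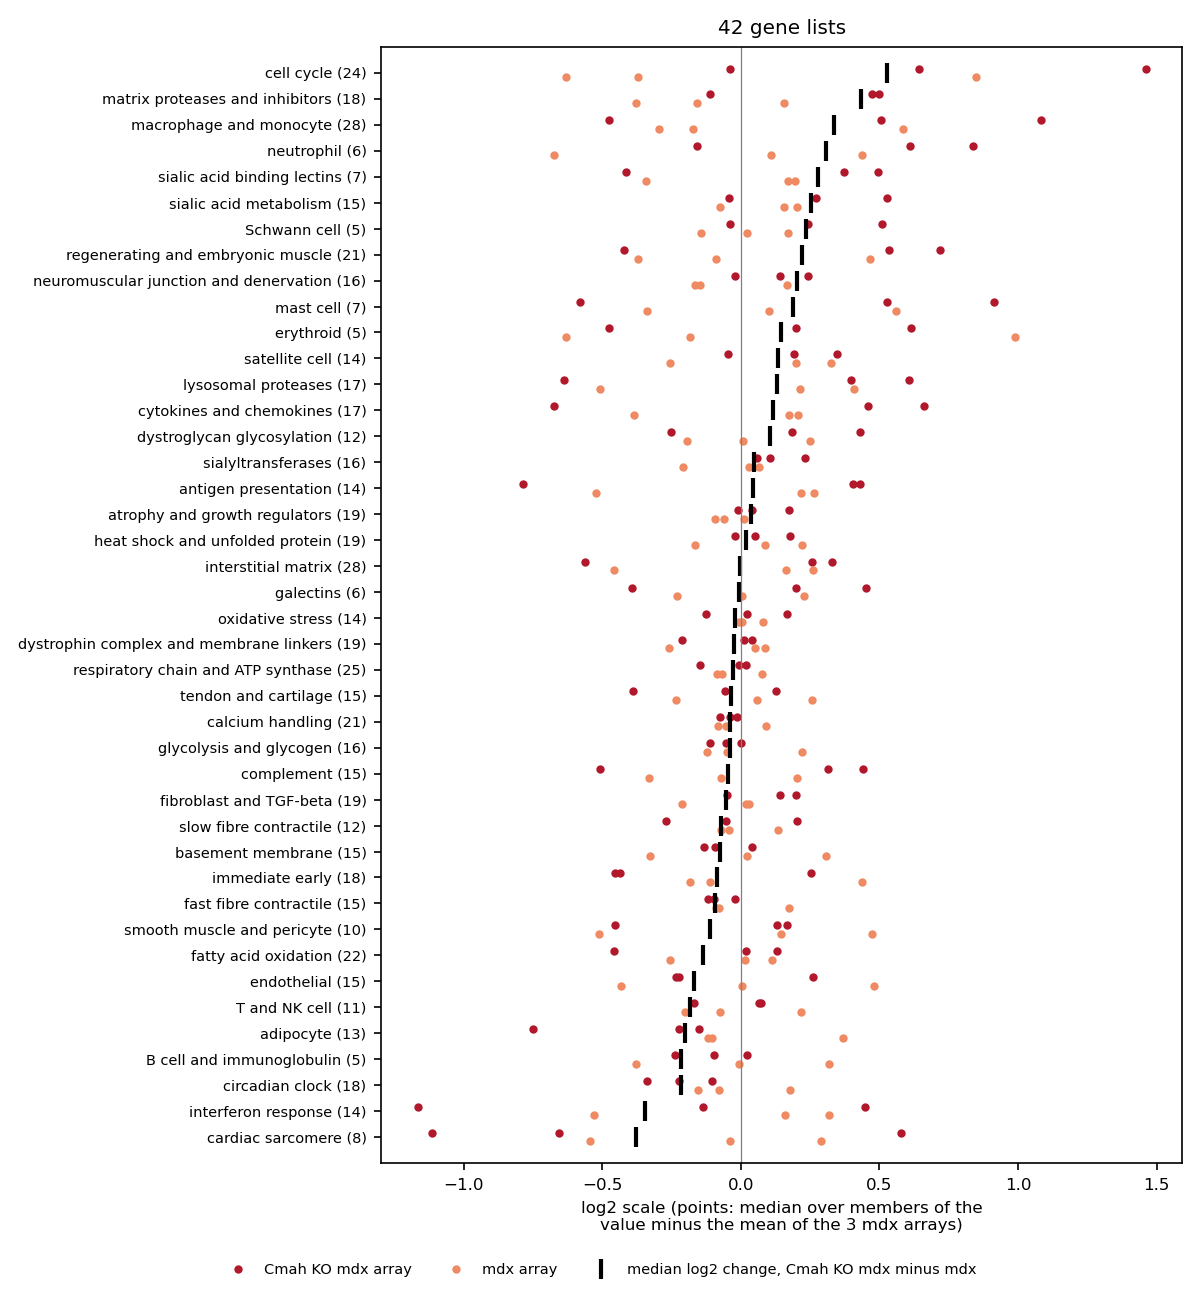
For each of 42 gene lists in gastrocnemius (rows, number of measured members in brackets), the median over members of the log2 value minus the mean of the 3 mdx arrays, 1 point per array, with the median log2 difference between Cmah KO mdx and mdx as a black bar. Cell cycle genes stand at 0.53 and cardiac sarcomere genes at -0.38, and the points of the groups overlap in most lists.

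The remaining lists had medians between -0.11 and 0.24, with lysosomal proteases at 0.13 (14 of 17 higher), cytokines and chemokines at 0.12 (11 of 17), antigen presentation at 0.04 (8 of 14), complement at -0.05 (7 of 15), oxidative stress at -0.02 (6 of 14), heat shock at 0.02 (10 of 19), atrophy and growth regulators at 0.04 (12 of 19), immediate early genes at -0.08 (5 of 18), smooth muscle and pericyte genes at -0.11 (3 of 10), Schwann cell genes at 0.24 (3 of 5) and erythroid genes at 0.14 (4 of 5).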

How the data were processed

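Per the labels' protocols, 25 ng of total RNA per sample was amplified and biotin-labelled for Affymetrix mouse arrays. The submitters' processing notes name GCOS and RMA, with no version given, and the authors deposited linear intensities of 45101 probe sets. After 64 control probe sets were left out, log2 was taken, and testing was limited to probe sets above the tissue's 40th percentile on 3 or more of its 12 arrays. Limma 3.58.1 (R 4.3.3) fitted 4 group means over the 12 gastrocnemius arrays, and 4 over the 12 heart arrays, with two-sided moderated tests and Benjamini-Hochberg adjustment over all probe sets tested. Tissue differences were fitted over 24 arrays with animal as a random block. The scripts were tested on simulated data. Errors of differences are limma standard errors.

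Probe sets were named from the platform annotation, through gene numbers matched to a GRCm38.p6 table (34741 of 34945 with 1 symbol). Named were Cmah, Dmd, Nnt, every probe set past the threshold, the 12 higher and 12 lower with the smallest p, 1 symbol and 1 group mean above the percentile, up to 10 further on chromosome 13, and up to 3 per gene list. Members and lists (43, of which 42 had a member tested) were chosen with earlier results of these data known. Same-numbered Cmah KO mdx and mdx arrays deviated together from their group means (correlations 0.615, 0.175 and 0.401), so values with the replicate block are given where they change a call. Cmah KO mdx replicate 2 went more closely with mdx replicate 3 (0.234) than with mdx replicate 2. Same-numbered Cmah KO and WT arrays, which the block over all 12 arrays also spans, gave correlations of -0.440, 0.350 and -0.399. That block thus covers groups in which same-numbered arrays did not deviate together throughout. Nothing says that litters or days were shared. The labels name separate animals. No 2 arrays were identical.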

Additional observations from a re-analysis of the deposited data

How the results depend on the processing

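For Cmah KO mdx against mdx the count of 1 became 2 with quantile normalization, 2 with values floored at the 40th percentile, 5 with array weights, 4 over 24 arrays with animal as a block and 0 with 1 probe set per gene. With the replicate numbers as a block it was 3 (Ctsl, Zfp874a and Uqcr10), and 2 where the block covered only these groups, an alternative chosen after seeing the data. Leaving out 1 array gave 0 to 1. It was 0 without Cmah KO mdx replicate 2, Cmah KO mdx replicate 3 or mdx replicate 2, and without mdx replicate 1 the probe set called was 1442447_at, which has no gene name here, in place of Ctsl (adjusted p = 0.0642). Without both replicate 1 arrays, also chosen after seeing the data, Ctsl read -4.19 (limma adjusted p = 0.132). Fitting only the 6 arrays called Xaf1 in place of Ctsl. For Cmah KO against WT the count of 0 became 1 with a stricter filter, quantile normalization, the floor, array weights, the replicate block and without Cmah KO replicate 1 (range 0 to 1 over arrays left out), Ctsl each time. In heart it became 19 with array weights, and the interaction became 1 without mdx replicate 1 (range 0 to 1). The tissue difference stayed at 0 in all 18 alternatives. Over 427 repeats of the 24 named differences none changed sign, 7, all of Ctsl, lost the call, and 9 (Uqcr10, Zfp874a, Prxl2c and Xaf1) gained one. The groups of these 24 did not overlap, so leaving out an array could not reverse a sign. Several other alternatives change the test but not the difference. The unchanged signs therefore do not measure stability. Of the 42 list medians 15 kept their sign in all 9 alternatives, among them cell cycle (0.17 to 0.95), macrophage (0.05 to 0.81), matrix proteases (0.08 to 0.54) and sialic acid metabolism (0.18 to 0.35), while interferon response ran from -0.71 to 0.01. The cause of these shifts was not tested. With 3 arrays a group, small differences cannot be resolved, and intensities near the 40th percentile have no reliable size.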

Other observations

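Several probe sets without a gene name in the platform annotation differed by more than 3 on the log2 scale, and they are given here as values, chosen after they were seen. Probe set 1442447_at read 2.24, 2.42 and 2.58 in Cmah KO mdx gastrocnemius and 4.91, 6.58 and 7.20 in mdx, with Cmah KO arrays at 2.35 to 2.65 and WT arrays at 2.56 to 3.20. The mdx arrays were thus alone in being high, as for Uqcr10, and the difference of -3.82 ± 0.47 had a limma adjusted p of 0.0607. In heart it read 2.77, 3.10 and 2.26 in Cmah KO mdx and 5.89, 5.12 and 6.45 in mdx.

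Probe set 1452426_x_at was high in Cmah KO mdx, at 10.10, 11.18 and 10.69, against 8.43, 6.14 and 6.98 in mdx (3.47 ± 0.66). Cmah KO and WT lay between, with means of 8.85 and 8.81. Heart gave the same order, with means of 10.30 in Cmah KO mdx and 6.93 in mdx. Probe set 1446484_at read 7.54, 5.71 and 6.60 in Cmah KO mdx and 9.25, 9.98 and 9.71 in mdx (-3.03 ± 0.69). Its mean of 6.90 in Cmah KO lay below the 8.75 in WT, but those groups overlapped. They read 7.02, 8.41 and 5.26 in Cmah KO and 9.24, 8.78 and 8.23 in WT. None of the last 2 passed limma's adjusted threshold.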
